A study of Mus musculus with 4 samples.

Results

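The comparison described here is that of CH223191 against its vehicle DMSO in peritoneal macrophages kept in normal medium, without any tumor conditioned medium. It rests on 1 library treated with CH223191 and 1 library treated with DMSO. Genes with 10 or more reads in either of these libraries were kept, which left 12831 of the 54532 genes in the deposited table, 11374 of them protein-coding. The study asked what aryl hydrocarbon receptor (AHR) activity does in macrophages exposed to products of 4T1 cells, a mouse mammary carcinoma line, and normal medium is the arm without those products. The whole series holds 4 libraries, 1 with DMSO and 1 with 10 µM CH223191 in normal medium, and the same pair in 30% 4T1-CM, the conditioned medium of 4T1 cells. All 4 came from wild type (WT) macrophages of the peritoneal fluid. Per the study's methods these were cells of BALB/c mice that had received thioglycollate into the peritoneal cavity, so they are elicited and not resting resident cells. The WT mice were 8 to 10 weeks old. How many were pooled is not given in the sources used here, and neither is the time in culture for these libraries.

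AHR is a transcription factor that rests in the cytoplasm with HSP90 and p23 and moves to the nucleus when a ligand binds. There it pairs with ARNT on the xenobiotic response element, whose core is GCGTG, and raises genes such as Cyp1a1, Cyp1b1, Tiparp and its own repressor Ahrr. Its ligands include pollutants and products of tryptophan, and CH223191 is a synthetic antagonist that competes with them for the receptor. In macrophages and other immune cells AHR is known to shape cytokine output, antigen presentation and tolerance.

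The total of the counts was 15535405 in the DMSO library and 16129075 in the CH223191 library, and 17557127 and 16388246 in the 4T1-CM libraries with DMSO and CH223191. After scaling by the trimmed mean of M-values (TMM) the effective sizes of the normal medium libraries were 15941399 and 15903313, so their reads can be set side by side almost directly. Read counts below are given in the order DMSO, then CH223191, unless stated otherwise. CPM means reads per 1000000 of the effective size. A log2 ratio is that of CH223191 to DMSO after a prior count of 0.5 was added, and its 95% interval is the exact Clopper-Pearson interval of how the reads split between the libraries. With no replicate there is no test and no p-value, and the intervals cover counting error only: they compare these 2 libraries and not the conditions. Without replicates, an effect of the compound and a difference between cultures or library preparations cannot be told apart.

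Most genes were at similar levels in both libraries. The median log2 ratio over the 12831 genes was 0.0034, and 84.6% of the genes lay within 1.5-fold. At least 2-fold higher with CH223191 were 489 genes (3.81%) and at least 2-fold lower were 299 genes (2.33%). Of these calls 62.1% were on the higher side, and once the median of each of 10 length groups of genes had been subtracted the counts were 390 and 365, with 51.7% on the higher side. Many calls rested on few reads. Among the 1716 genes with 10 to 49 reads in the 2 libraries together, 16.9% were 2-fold higher and 14.0% were 2-fold lower, whereas among the 5041 genes with 1000 reads or more the shares were 1.15% and 0.0992%. A stricter call required the whole interval to lie past 2-fold. It held for 109 genes on the higher side (0.850%) and for 36 genes on the lower side (0.281%). On this call the well-covered genes were almost all on the higher side, with 45 higher and 1 lower among genes with 1000 reads or more. With the median of each length group subtracted, the stricter call held for 79 higher and 45 lower genes of all those kept.

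**Figure D1:**
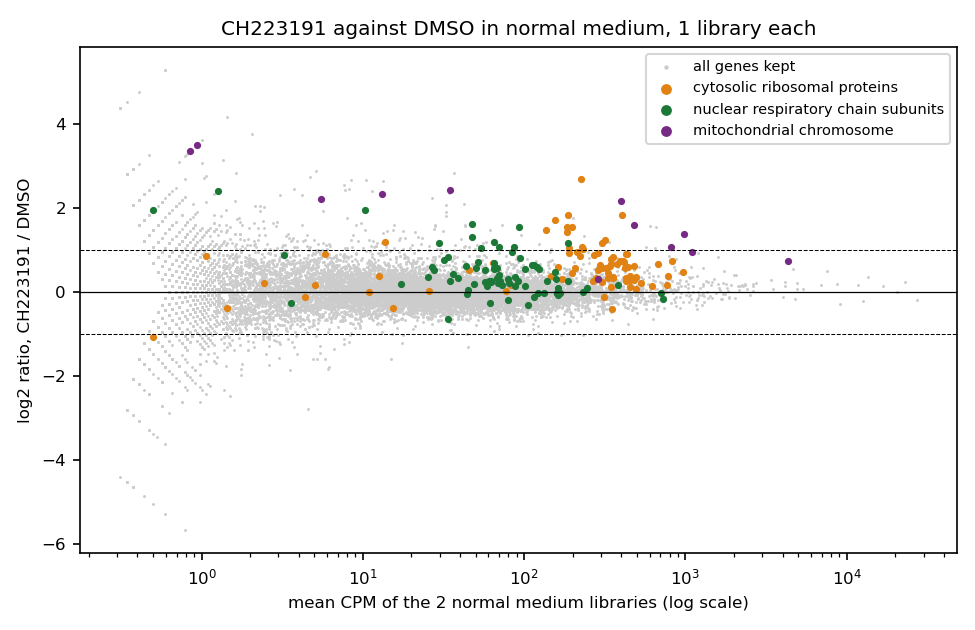
Each point is 1 of the 12831 genes, with the mean CPM of the 2 normal medium libraries on a log scale and the log2 ratio of CH223191 to DMSO (prior count 0.5, so genes at 0 in a library sit at values that are no bound). Dashed lines mark 2-fold, and the genes of the mitochondrial chromosome, the nuclear respiratory chain and the cytosolic ribosome lie mostly above 0.

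Most target genes of AHR had few reads in these cells. Of 12 listed targets 5 had enough reads, 1 was above 0 and 4 were below 0. Their median log2 ratio of -0.36 was the value of Ahrr, on 13 and 10 reads, and the median was -0.04 for the 3 targets with at least 50 reads in the 2 libraries together. Cyp1b1, a cytochrome P450 that is induced through AHR in many cell types, had 65 reads with DMSO and 19 with CH223191. Its log2 ratio was -1.74 (95% interval -2.59 to -1.02), so Cyp1b1 was the only kept target past 2-fold and its whole interval lay past that line. Cyp1b1 had 361 and 171 reads in the 4T1-CM libraries with DMSO and CH223191, a log2 ratio of -0.97. The classical target Cyp1a1 had 0 reads in all 4 libraries, as did Cyp1a2 and Aldh3a1, which allows up to 3 reads or 0.188 CPM in the DMSO library.

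The other targets lay closer to equality. Nqo1, a quinone reductase, had 28 and 18 reads (log2 ratio -0.62, 95% interval -1.57 to 0.27), and Ahrr, the AHR repressor, had 13 and 10 reads (-0.36, -1.72 to 0.93). Both intervals include 0, so no difference was detectable at this depth. Tiparp, an ADP-ribosyltransferase that limits AHR signaling, was well covered with 882 and 972 reads and a log2 ratio of 0.14. Nfe2l2, which encodes NRF2, had 6090 and 5907 reads and a log2 ratio of -0.04. The remaining listed targets stayed under 10 reads in both libraries: Ugt1a6a with 0 and 3, Ugt1a6b with 3 and 2, Scin with 3 and 0 and Tnfaip6 with 1 and 0.

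The receptor itself was scarce. Ahr had 30 reads with DMSO and 21 with CH223191, a log2 ratio of -0.50 whose interval ran from -1.39 to 0.34. Its partner Arnt had 782 and 807 reads (0.05), while the related Arnt2 had 53 and 39 (-0.43). The HSP90 genes Hsp90aa1 and Hsp90ab1 were at -0.15 and -0.08, and Ptges3, which encodes p23, was at -0.14. None of the 10 genes of this list was past 2-fold, and its median was -0.07.

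The promoters of Cyp1b1 and Cd274, the target past 2-fold and the checkpoint ligand that the study follows, are shown to place the AHR core motif. Each is the 250 bases before the RefSeq start site in GRCm38.p6, written 5′ to 3′ on the strand of the gene, with matches to GCGTG or its reverse complement CACGC in capitals. Cyp1b1 is at chr17:79715062-79715311 on the minus strand and its match begins at position -76 from the start. Cd274 is at chr19:29367188-29367437 on the plus strand and its match begins at position -201. The paper reports AHR binding to the Cd274 promoter by chromatin immunoprecipitation, in macrophages treated with tumor conditioned medium. The sites it lists for that assay lie further upstream, outside the 250 bases shown. Whether AHR binds the match at -201 was not tested.
Cyp1b1: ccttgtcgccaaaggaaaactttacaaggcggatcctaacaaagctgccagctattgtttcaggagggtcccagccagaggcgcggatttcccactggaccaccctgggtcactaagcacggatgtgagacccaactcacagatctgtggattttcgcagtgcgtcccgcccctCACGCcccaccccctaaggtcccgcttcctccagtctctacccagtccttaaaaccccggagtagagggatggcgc
Cd274: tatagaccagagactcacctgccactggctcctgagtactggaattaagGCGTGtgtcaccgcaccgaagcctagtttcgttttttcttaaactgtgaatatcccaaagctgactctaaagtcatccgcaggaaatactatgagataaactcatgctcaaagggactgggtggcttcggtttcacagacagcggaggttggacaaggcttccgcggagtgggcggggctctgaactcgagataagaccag
Of the 10 AHR targets with an entry, 5 held a match: Ahrr with 3, and Cyp1a1, Cyp1b1, Scin and Tiparp with 1 each. The motif is short and common, and 30.9% of the 27025 genes with a RefSeq promoter held it, or 50.3% of the 9363 kept genes with one. The median log2 ratio was -0.0089 for the 4707 kept genes with a match and 0.020 for the 4656 without, so the 2 groups of genes were centred at nearly the same place. Among the largest changes described below, 7 of 12 higher genes and 7 of 11 lower genes with an entry held a match.

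The checkpoint and costimulatory genes were mostly level or slightly higher with CH223191. Cd274, which encodes PD-L1, had 1247 reads with DMSO and 1539 with CH223191, a log2 ratio of 0.31 (95% interval 0.20 to 0.42). In 4T1-CM the same gene had 6284 and 6091 reads and a ratio of 0.06. The list of 15 such genes holds ligands, receptors such as Havcr2 and the ectoenzymes Nt5e and Entpd1. Of these 15 genes 11 were kept and 9 were above 0, with a median of 0.21. Tnfsf9, the ligand of 4-1BB, was the only one past 2-fold, on 3 and 12 reads (log2 ratio 1.84, 0.11 to 4.47). Cd80, which binds CD28 and CTLA-4, had 142 and 177 reads (0.32), and Vsir, which encodes VISTA, had 13141 and 15135 (0.21). Havcr2, which encodes TIM-3, went the other way with 382 and 259 reads and a log2 ratio of -0.56 (-0.79 to -0.33).

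Enzymes that make or consume tryptophan products were scarce. Ido1, the interferon-inducible dioxygenase that opens the kynurenine pathway, had 2 and 0 reads, Il4i1 had 1 and 1, and Kynu had 4 and 0. Only 4 of 12 listed genes were kept, none past 2-fold. Kyat3, a kynurenine aminotransferase, was the highest with 45 and 83 reads, a log2 ratio of 0.88 (0.35 to 1.44).

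To name single genes, 7824 protein-coding genes of 10 CPM or more on average, outside the ribosomal protein genes and the mitochondrial chromosome, were ranked by the bound of the interval that lies nearest 0, and the first 15 on each side were taken. The log2 ratios of the 15 higher genes ran from 1.19 to 2.24, and all 15 were past 2-fold. The 15 lower genes ran from -1.60 to -0.87, and 6 of them were past 2-fold. The genes of these groups differed in their make-up: the median exonic length was 1213 bases for the higher and 5437 bases for the lower genes.

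**Figure D2:**
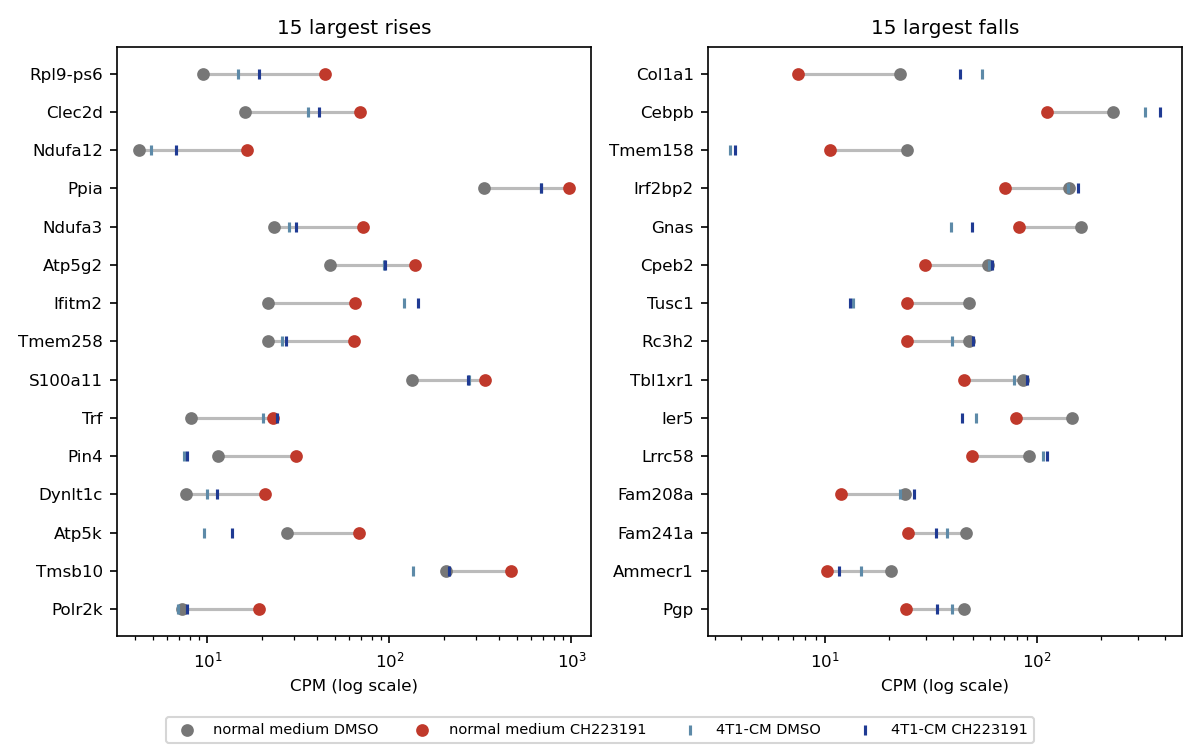
CPM (log scale) of the 15 genes ranked first on the higher side and the 15 ranked first on the lower side, 1 point per library and a grey line between the normal medium libraries. The normal medium library with CH223191 is the highest of the 4 for 13 of the 15 higher genes and the lowest of the 4 for 11 of the 15 lower genes. The genes were ranked by the ratio of this library to DMSO, which by itself favors such a position.

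Clec2d was the clearest gene on the higher side that shares little sequence with other genes. It encodes a C-type lectin that binds inhibitory NKR-P1 receptors of natural killer cells. Clec2d was at 16 CPM with DMSO and 68.9 CPM with CH223191, a log2 ratio of 2.10 (95% interval 1.91 to 2.31), and at 35.5 and 41.2 CPM in 4T1-CM. The CH223191 library in normal medium was thus above all 3 others. Ppia, the abundant prolyl isomerase cyclophilin A, was at 331 and 975 CPM (1.56), with 677 and 680 CPM in 4T1-CM. Here the DMSO library of normal medium was the lowest and the CH223191 library the highest, with both 4T1-CM libraries between them.

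The respiratory chain gave 4 of the 15: Ndufa12 (log2 ratio 1.96) and Ndufa3 (1.62) of complex I, and Atp5g2 (1.55) and Atp5k (1.31) of the ATP synthase. Tmem258, a subunit of the oligosaccharyltransferase, was at 21.4 and 64.3 CPM (1.59). S100a11, a small calcium-binding protein, was at 133 and 336 CPM (1.33), and Tmsb10, an actin-binding thymosin, was at 205 and 466 CPM (1.19). Polr2k, a subunit shared by the RNA polymerases, had a log2 ratio of 1.42. Ifitm2, an interferon-induced membrane protein, was at 21.5 and 64.5 CPM (1.59) but at 121 and 144 CPM in 4T1-CM, above both libraries of normal medium. The transferrin gene Trf was at 8.15 and 22.8 CPM (1.48), and 59.4% of its 50-base words also occur in other genes. The remaining 3 were Rpl9-ps6 (2.24), named as a ribosomal protein pseudogene but annotated as protein-coding, the prolyl isomerase Pin4 (1.43) and the dynein light chain Dynlt1c (1.45). These 3 share 89.2%, 57.4% and 84.4% of their words with other genes, and 9 of the 15 share over 20%, so reads of near-identical copies can be divided differently among them.

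On the lower side Col1a1, a chain of type I collagen, ranked first with 22.5 CPM with DMSO and 7.42 CPM with CH223191 (log2 ratio -1.60, 95% interval -1.91 to -1.30). Cebpb, a bZIP factor of macrophage activation and differentiation, was at 228 CPM with DMSO and 112 CPM with CH223191 (-1.03, -1.11 to -0.95). In 4T1-CM Cebpb was at 323 and 382 CPM, so the CH223191 library of normal medium was the lowest of the 4. Exons of another gene on the opposite strand cover 20.7% of the exonic bases of Cebpb, and whether counting used the strand is not stated. The same limit holds for Irf2bp2 (20.5%) and Gnas (22.0%). Irf2bp2, a co-repressor that binds IRF2, was at 142 and 70.2 CPM (-1.01), with 140 and 156 CPM in 4T1-CM. Gnas, the stimulatory G protein subunit that links receptors to adenylyl cyclase, was at 161 and 81.8 CPM (-0.98).

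Cpeb2, which binds polyadenylation elements in mRNA, was at 58.9 and 29.4 CPM (-1.0). Rc3h2, the roquin paralog that promotes mRNA decay, was at 47.9 and 24.3 CPM (-0.98), and Tbl1xr1, part of the NCoR and SMRT co-repressor complexes, was at 85.4 and 45.1 CPM (-0.92). Fam208a, a core part of the HUSH silencing complex, was at 23.9 and 11.8 CPM (-1.01). For these 4 genes both 4T1-CM libraries were above the normal medium CH223191 library, with Cpeb2 at 59.2 and 61.1 CPM and Rc3h2 at 39.6 and 49.9 CPM. The others were Tmem158 (-1.20), Tusc1 (-0.98), Ier5 (-0.87), Lrrc58 (-0.89), Fam241a (-0.90), Ammecr1 (-0.99) and Pgp (-0.90). Tmem158, Tusc1, Cebpb and Ier5 have a single exon. None of the 15 shares over 20% of its words with another gene.

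In plain CPM the largest differences were in the dominant macrophage transcripts. Gpnmb, a glycoprotein of lipid-laden macrophages, was at 21228 and 25068 CPM (log2 ratio 0.24), and Lyz2, the macrophage lysozyme, at 11888 and 15185 CPM (0.35). The galectin gene Lgals3 was at 6227 and 8783 CPM (0.50) and Apoe, the lipid carrier, at 3778 and 5531 CPM (0.55). The fifth was mt-Co1. On the lower side stood Psap, the precursor of the saposins, at 29204 and 25486 CPM (-0.20), followed by the ferritin genes Fth1 (-0.21) and Ftl1 (-0.28), Vim (-0.16) and Actb (-0.12). None of these 10 was past 2-fold. Opposite-strand exons cover 26.5% of the exonic bases of Ftl1. In 4T1-CM Apoe was again higher with CH223191, at 2244 and 3334 CPM (0.57), while Gpnmb was lower, at 20068 and 17886 CPM (-0.17).

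The cytosolic ribosomal protein genes stood on the higher side as a group. Of 86 genes 82 were kept, 76 were above 0 and their median log2 ratio was 0.57, against 0.0034 for all genes kept. Past 2-fold were 14 higher (17.1%, beside 3.81% of all genes) and 1 lower, Rpl24 on 11 and 5 reads. The whole interval lay past 2-fold on the higher side for 11 of the 82 genes, beside 0.850% of all genes. Rps27 was highest, with 960 reads with DMSO and 6158 with CH223191 (log2 ratio 2.68), followed by Rps29 with 2817 and 10114 (1.85) and Rps28 with 1146 and 3766 (1.72). Rps27 had 1072 and 2838 reads in 4T1-CM, so this gene was also higher with CH223191 there (1.51), whereas Rps29 had 2167 and 2128 (0.08). Among the others Rpl27, Rpl38, Rpl36a, Rps21, Rpl31 and Rpl32 had log2 ratios between 1.16 and 1.56. Of the remaining 2-fold genes Rpl35a was at 1.20, Rpl37 at 1.06 and Rpl28 at 1.03.

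Over all 4 libraries the normal medium CH223191 library stood alone. It had the highest CPM of the 4 for 73 of the 82 genes, and the family took 2.85% of its reads, against 1.99% with DMSO in normal medium and 1.64% in each 4T1-CM library. The same 82 genes had a median of -0.02 in 4T1-CM. Of the 82 genes 43 share over 20% of their 50-base words with other genes, so their single values are uncertain. Rps29, Rps28, Rps21 and Rpl31 share less than that.

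mRNAs of ribosomal proteins begin with a run of pyrimidines, the terminal oligopyrimidine (TOP) motif through which mTORC1 and LARP1 control their translation and stability. Of the 11 genes whose whole interval lay past 2-fold, 7 have a RefSeq start, and the 4 of them that hold such a run are shown, whereas Rpl27, Rpl36a and Rps28 did not hold it. Rps21 has another RefSeq start without the run. Each window is 30 bases of GRCm38.p6 around the RefSeq start, which is base 16, and capitals mark a run that opens with C within 5 bases of the start and goes on with at least 4 bases that are C or T.
Rpl38 (chr11:114668565-114668594, plus strand): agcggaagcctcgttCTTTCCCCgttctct
Rps27 (chr3:90213634-90213663, minus strand): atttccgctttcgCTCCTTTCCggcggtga
Rps21 (chr2:180257364-180257393, plus strand): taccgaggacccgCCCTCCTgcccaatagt
Rpl31 (chr1:39367836-39367865, plus strand): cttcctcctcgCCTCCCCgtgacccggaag
Such a run was found for 30 of the 62 kept ribosomal protein genes with a RefSeq entry (48.4%) and for 23.8% of all 9363 kept genes with one. Within the ribosomal family the median log2 ratio was 0.58 with the run and 0.52 without it, close to equal. A list of 17 other genes with TOP mRNAs, added after the ribosomal values had been seen, was mixed. Of these 9 were above 0, none was past 2-fold and the median was 0.08. The interval lay above 0 for 9 of the 17 and below 0 for 4. Tpt1 (0.57) and Naca (0.59) were at the ribosomal level, Eef1a1 (0.08) and Eef2 (0.15) were not, and Pabpc1 was at -0.41. The part of TOP control in these values was not tested.

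The mitochondrial chromosome showed the largest shift of any list. Of its 13 protein-coding genes 12 were kept, all were above 0 and the median was 1.88. The whole interval lay past 2-fold for 9 (75%, beside 0.850% of all genes). Among the 12, mt-Nd3 and mt-Nd4l passed the filter only through the CH223191 library. With at least 10 reads in both libraries the median was 1.49 over 10 genes. The summed CPM of the 13 was 5715 with DMSO and 11163 with CH223191. mt-Nd4, a complex I subunit, had 2312 and 10401 reads (log2 ratio 2.17), and mt-Cytb of complex III had 8582 and 22448 (1.39). mt-Co1, the most abundant, had 51836 and 86248 reads and a smaller ratio of 0.74. In 4T1-CM mt-Nd4 had 10971 and 10137 reads and mt-Cytb 17880 and 16903, so the DMSO library of normal medium was the low one. It was the lowest of the 4 libraries for all 12 genes, and the median in 4T1-CM was 0.09. Its share of all reads was 0.633% in that library, 1.17% with CH223191 in normal medium and 1.76% and 1.79% in 4T1-CM.

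The ratios within the mitochondrial chromosome were uneven. mt-Nd6, the only protein gene on the light strand, had 4073 and 5027 reads and was at 0.31, the smallest ratio of the 12. mt-Co2 (172 and 928 reads, 2.43), mt-Co3 (69 and 351, 2.34) and mt-Atp6 (31 and 145, 2.21) were far higher in ratio but low in reads, and almost all of their words also occur in other genes. These 3 were also higher with CH223191 in 4T1-CM, with log2 ratios of 1.22, 1.44 and 0.93. mt-Nd3 had 2 and 25 reads and mt-Nd4l 2 and 28, with intervals of 1.64 to 6.77 and 1.82 to 6.93.

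Nuclear genes of the respiratory chain followed with smaller ratios. Of 83 genes 78 were kept, 63 were above 0, 12 were 2-fold higher (15.4%, beside 3.81% of all genes), none was 2-fold lower and the median was 0.33. Besides the complex I and ATP synthase genes named above, Cox8a of complex IV had 1832 and 4098 reads (1.16), Uqcr11 of complex III had 631 and 1437 (1.19) and Ndufs6 had 291 and 655 (1.17). Cox5b (1.09), Cox7a2 (1.08) and Ndufa1 (1.06) were just past 2-fold. Cox7a1 with 6 and 34 reads and Cox6a2 with 3 and 13 reads, both known from muscle, were past it on few reads. For 61 of the 78 genes the normal medium CH223191 library was the highest of the 4, and the median in 4T1-CM was -0.02. Mitochondrial ribosomal proteins were shifted less, with 57 of 77 above 0, a median of 0.19. Their 3 genes past 2-fold, Mrps36 (1.12), Mrpl57 (1.03) and Mrpl42 (1.0), were 3.90% of the family, near the 3.81% of all genes.

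**Figure D3:**
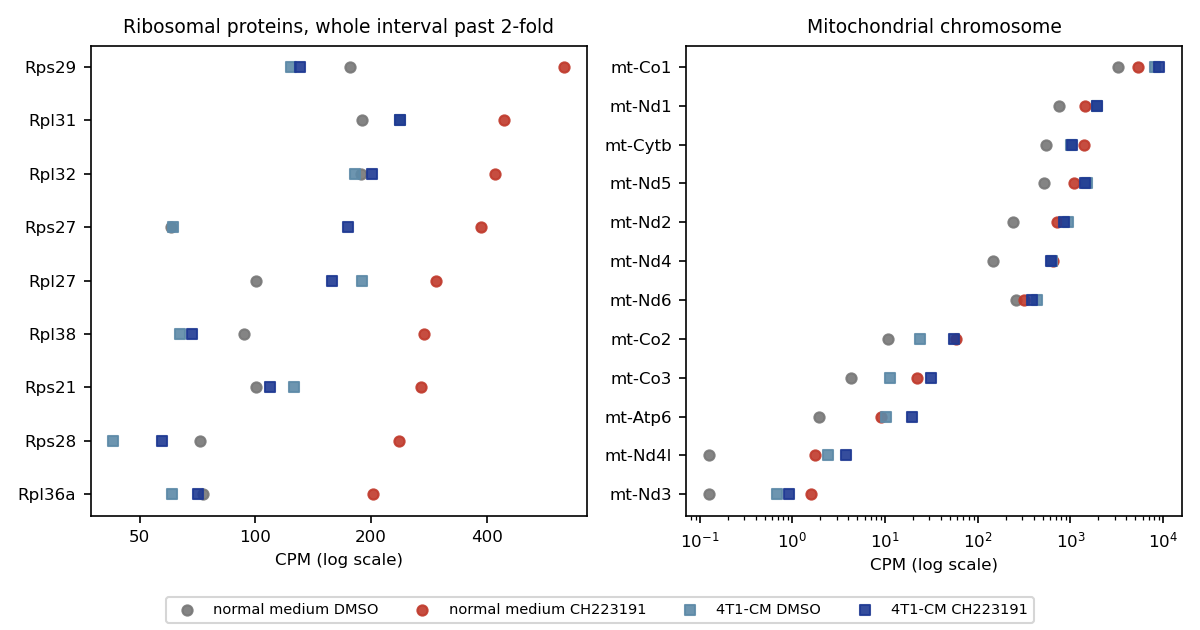
CPM (log scale) in each of the 4 libraries for 9 of the 11 ribosomal protein genes whose whole interval lies past 2-fold (left) and the 12 kept protein-coding genes of the mitochondrial chromosome (right). The ribosomal genes are highest in the normal medium CH223191 library, and the mitochondrial genes are lowest in the normal medium DMSO library.

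Gene length moved with the ratio. When the 12831 genes were split into 10 groups by exonic length, the median log2 ratio went down step by step from 0.24 in the shortest group (57 to 1298 bases) to -0.10 in the longest (9559 bases and more). In 4T1-CM the same groups had medians between -0.02 and 0.06. Across the 8860 protein-coding genes with at least 200 reads, the ratio in normal medium had a Spearman's rho of -0.30 with length and that in 4T1-CM one of 0.07, as a description of genes that share the same libraries. The rho with GC content of the transcripts was 0.23 and 0.05. Genes under 1000 bases took 3.42% of the reads with DMSO and 4.06% with CH223191 in normal medium, and genes over 5000 bases took 41.3% and 39.1%. With the median of each length group subtracted, 19 of the 40 genes named by ratio or by CPM lay outside their former interval. None of the 40 changed direction. Among the higher genes Tmsb10 (0.94) was then within 2-fold. Among the lower genes Irf2bp2 (-0.98), Cpeb2 (-0.93) and Fam208a (-0.91) were then within 2-fold, and Tusc1 (-1.10) and Pgp (-1.14) were past it. The part of length in other single genes was not tested.

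**Figure D4:**
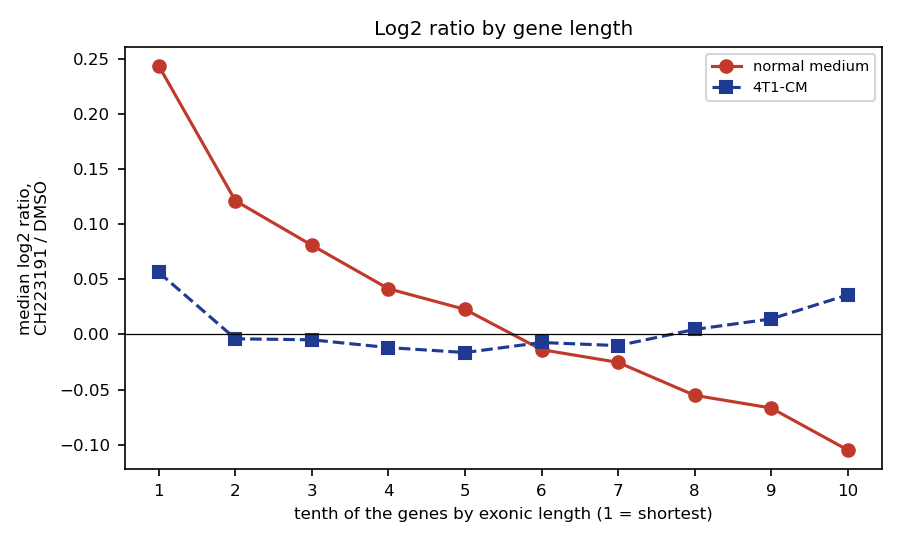
Median log2 ratio of CH223191 to DMSO in each of 10 groups of genes ordered by exonic length, for normal medium (circles) and for the same genes in 4T1-CM (squares). The normal medium medians go from 0.24 to -0.10, and those of 4T1-CM stay between -0.02 and 0.06.

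The shifts of the families were larger than that of other short genes. Under 1300 bases the 21 ribosomal protein genes had a median of 0.73 and the 32 respiratory chain genes one of 0.53, against 0.28 for the other 448 protein-coding genes. At 1300 bases and more the ribosomal protein genes were at 0.38 and the respiratory chain genes at 0.22. With the median of each length group subtracted, the medians were 0.37 for the ribosomal proteins and 0.19 for the respiratory chain. Genes with a single exon did not follow their length: the 126 with at least 200 reads had a median length of 2145 bases, yet 85 of them were below 0 and their median was -0.12.

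Copies and noncoding genes made up much of the stricter calls. Of the 109 genes on the higher side 61 were protein-coding and 38 were pseudogenes, and 69 share over 20% of their words with other genes, compared with 10.0% of all genes kept. Of the 36 on the lower side 12 were protein-coding and 22 were pseudogenes, and 23 share over 20% of their words. Pseudogenes were 5.71% of all genes kept. On the higher side 12 genes lay on the mitochondrial chromosome (9 protein-coding and 3 tRNA genes), 11 were ribosomal protein genes and 7 belonged to the nuclear respiratory chain. Among all 12831 genes kept were 12 protein-coding genes of the mitochondrial chromosome, 82 ribosomal protein genes and 78 of the nuclear respiratory chain. When only protein-coding genes with at most 20% shared words and at least 100 reads in the 2 libraries together were taken, 22 higher and 2 lower genes were left. Beside Clec2d and the families above, the higher ones included Angptl4, Sec61g, Atpif1, Nabp2, Cstb and Glipr1. The 2 lower genes were Col1a1 and Col3a1.

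Of these, Sec61g, a subunit of the translocon of the endoplasmic reticulum, had 562 and 1275 reads (log2 ratio 1.18). Atpif1, the inhibitor of the mitochondrial ATP synthase, had 543 and 1225 (1.18). Cstb, which inhibits cathepsins, was far more abundant with 6775 and 13937 reads (1.04). All 3 had ratios between -0.10 and 0.31 in 4T1-CM. Among protein-coding genes at 0 in a library, H2-Q2, a class I histocompatibility gene, had 19 reads with DMSO and 0 with CH223191, at least 6.32-fold lower against 3 reads. Vcam1, an adhesion molecule, had 0 and 10 reads, at least 3.34-fold higher. These genes were named after their values had been seen.

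Lipid genes were shifted to the higher side. LXR and PPARγ are nuclear receptors that sense oxysterols and fatty acids in macrophages. Of 17 of their targets 15 were kept, 14 were above 0 and the median was 0.48. An interval above 0 was found for 14 of these targets, beside 2868 of the 12831 genes kept. Such an interval needs enough reads, and the genes kept include many with few, so these counts are not alike in depth. Angptl4, an inhibitor of lipoprotein lipase induced by PPARs, was the only one past 2-fold, with 22 reads with DMSO and 111 with CH223191 (log2 ratio 2.31, 95% interval 1.67 to 3.07). Angptl4 had 19 and 18 reads in 4T1-CM, so the normal medium CH223191 library was above all 3 others. Abcg1, a cholesterol exporter, had 6285 and 9008 reads (0.52), Lpcat3, a phospholipid remodeling enzyme, 1012 and 1611 (0.67), and Nr1h3, which encodes LXRα, 657 and 1023 (0.64). Fabp5, a fatty acid carrier, had 13798 and 20843 reads (0.60). Pparg itself had 885 and 824 reads and was the only member below 0 (-0.10).

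Fatty acid synthesis went the same way on a smaller scale. Of 12 kept genes 11 were above 0, with a median of 0.28. Scd1, the stearoyl-CoA desaturase, was past 2-fold with 517 and 1054 reads (1.03, 0.88 to 1.19), and Fads2, the delta-6 desaturase, had 187 and 322 (0.79). Fasn, the fatty acid synthase, was level with 2877 and 2789 reads (-0.04). The genes of cholesterol synthesis were split, with 14 of 24 above 0 and a median of 0.03. Pmvk (212 and 372 reads, 0.81) and Mvd (1008 and 1511, 0.59) were higher, while Msmo1 (3356 and 2620, -0.35) was lower. Of 13 kept genes of lipid-associated macrophages, the TREM2-dependent state, 12 were above 0 with a median of 0.19 and none past 2-fold. Tyrobp, the adaptor of TREM2, was the highest with 10225 and 17646 reads (0.79).

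**Figure D5:**
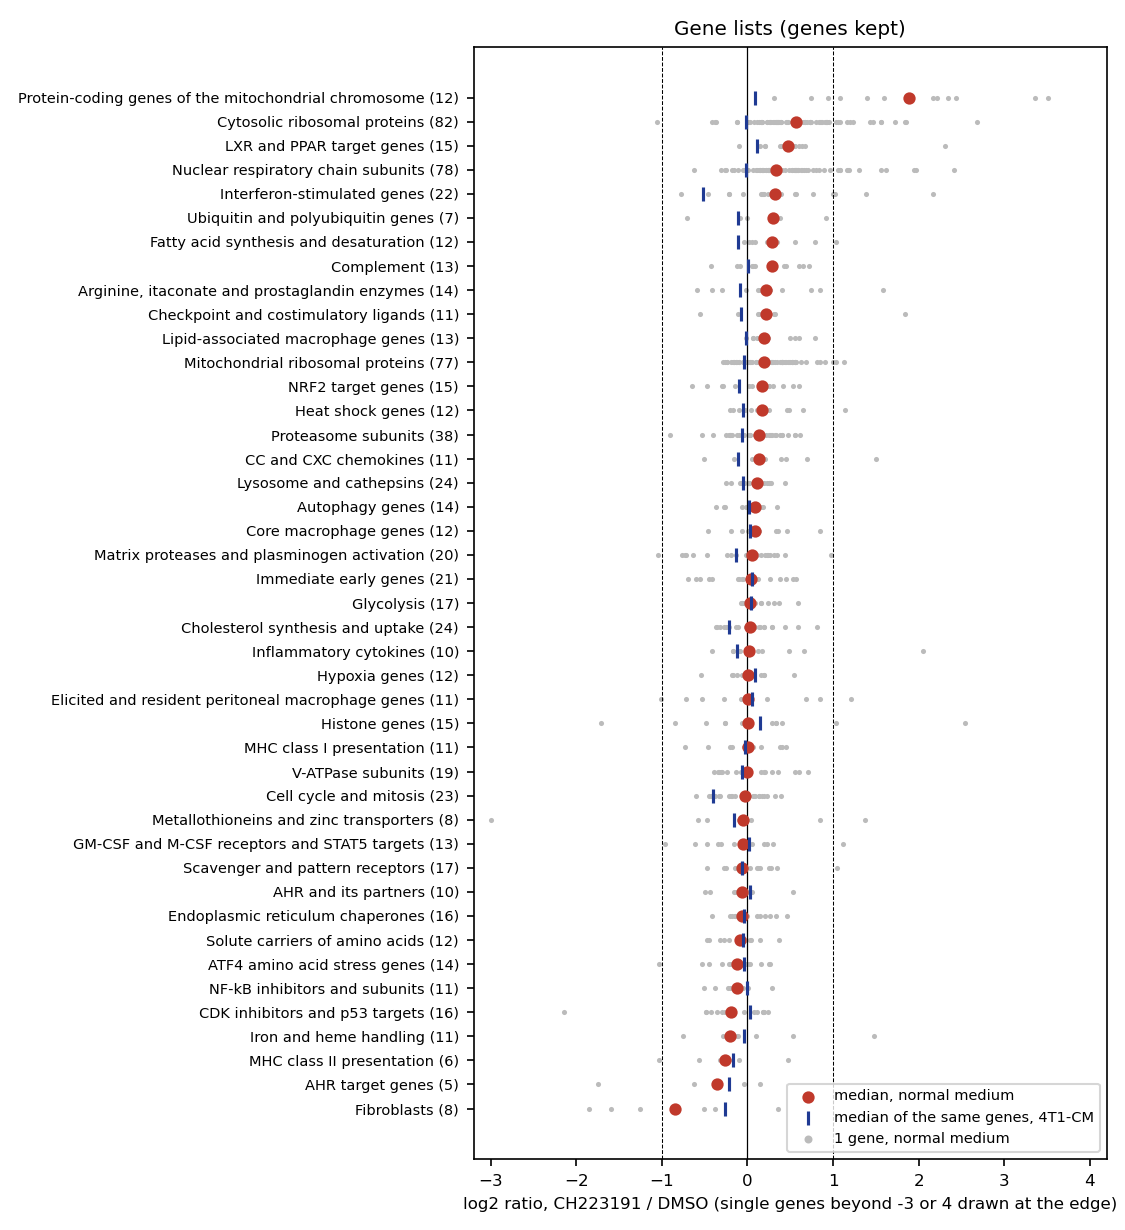
Log2 ratio of CH223191 to DMSO for every gene list with at least 5 kept genes (number kept in brackets), with grey points for single genes in normal medium, a red point for their median and a blue mark for the median of the same genes in 4T1-CM. The mitochondrial chromosome (1.88) and the ribosomal proteins (0.57) lie at one end and the fibroblast markers (-0.85) at the other.

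Interferon-stimulated genes were low in normal medium and mostly higher with CH223191. Of 26 listed genes 22 were kept, 17 were above 0 and the median was 0.32. Past 2-fold were 3 (13.6%, beside 3.81% of all genes), on 9 to 79 reads in a library: Ifit1 with 9 and 42 reads (log2 ratio 2.16, 1.17 to 3.45), Rtp4 with 30 and 79 (1.39, 0.78 to 2.06) and Ifit3 with 18 and 37 (1.02, 0.19 to 1.94), and Ifit2 was at the line with 59 and 118 (1.0). Ifit genes encode proteins that bind viral RNA, and Rtp4 is a chaperone of receptors. In 4T1-CM all 22 genes were below 0 with a median of -0.52, Ifit1 having 206 and 109 reads and Rtp4 690 and 348. The directions of the list were thus opposite in the 2 media, and this difference was not tested. Of the 5 genes below 0 in normal medium Gbp3, a GTPase, had 62 and 36 reads (-0.77).

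Cytokines and chemokines were near equality. Of 10 kept cytokines 5 were above 0 (median 0.02), and only Il27, a heterodimeric cytokine subunit, was past 2-fold on 3 and 14 reads (2.05, 0.38 to 4.67). Tnf had 247 and 230 reads (-0.10), Csf1, the growth factor of macrophages, had 313 and 235 (-0.41), and Il1b and Il6 had 2 and 8, and 0 and 0. Of 11 kept chemokines 9 were above 0 with a median of 0.13, which became -0.03 once the length trend was removed. Cxcl2 had 5 and 15 reads (1.5, 0.06 to 3.40), Ccl6 3065 and 4963 (0.70) and Ccl9 2578 and 3500 (0.44). NF-kB subunits and inhibitors had a median of -0.12, and Nfkbia had 267 and 268 reads. The immediate early genes had a median of 0.04, with Jund at 1810 and 1187 reads (-0.61) and Fos at 861 and 1117 (0.38). Among receptors and targets of the colony-stimulating factors, whose median was -0.06, Socs3 had 20 and 44 reads (1.12) and Csf2ra 6407 and 4587 (-0.48).

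Antigen presentation by MHC class II was on the lower side. Of 6 kept genes 5 were below 0, with a median of -0.27. H2-Eb1, a beta chain, had 64 and 31 reads (log2 ratio -1.03, -1.71 to -0.40), and Cd74, the invariant chain, had 510 and 342 (-0.57, -0.77 to -0.37). MHC class I had a median of 0.00, with H2-K1 at 3540 and 2121 reads (-0.74) and B2m, the light chain, at 12260 and 16773 (0.46). Complement was mostly higher, with 10 of 13 kept genes above 0 and a median of 0.28, led by the chains of C1q: C1qb with 164 and 269 reads (0.72) and C1qa with 146 and 229 (0.65).

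Metal and redox genes were mixed. Mt1, a metallothionein that buffers zinc and copper, had 2537 and 4542 reads (log2 ratio 0.84, 0.77 to 0.91), while Mt2 had 12 and 0, at least 3.99-fold lower against 3 reads. The brain-type gene Mt3 had 14 and 37 reads (1.37, 0.48 to 2.41). In 4T1-CM Mt1 had 7473 and 6045 reads and Mt2 41 and 10. The 15 targets of NRF2, the factor of the antioxidant response, had a median of 0.17 with none past 2-fold: Gstm1 (0.61) and Hmox1 (0.53) were higher, Slc7a11 (-0.47) and Gclc (-0.29) lower. Tfrc, the transferrin receptor, had 8848 and 5224 reads (-0.76) and was the lowest of the 11 kept iron genes, whose median was -0.21 and whose only member past 2-fold was Trf.

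The stress, growth and metabolic lists showed little. Medians lay between -0.20 and 0.17 for heat shock, endoplasmic reticulum chaperones, ATF4 targets, glycolysis, hypoxia, cell cycle, CDK inhibitors and p53 targets, lysosome, autophagy, V-ATPase and proteasome genes. In the cell cycle list 10 of 23 genes were above 0 (median -0.03), with Cenpe at 184 and 121 reads (-0.60) and Mki67 at 625 and 730 (0.23). In 4T1-CM all 23 were below 0, with a median of -0.40, and the difference between the media was not tested. Ccnd2, a D-type cyclin, had 15 and 3 reads (-2.14, -4.75 to -0.50), and Mdm2, the ligase that restrains p53, had 2310 and 1712 (-0.43). Hspa1b, an HSP70 gene that shares 62% of its words, had 12 and 27 reads (1.14). Among the arginine and eicosanoid enzymes Ltc4s, the leukotriene C4 synthase, had 7 and 22 reads (1.59, 0.38 to 3.13) and Arg1, arginase 1, had 520 and 936 (0.85, 0.70 to 1.01). The 15 kept histone genes had a median of 0.00, which became -0.24 once the length trend was removed, with Hist1h2bc at 313 and 640 reads (1.03). Of these 15 genes 10 share over 20% of their words with other genes.

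A few further lists had single members past 2-fold. Serpinb2, an inhibitor of plasminogen activators, had 13 and 6 reads (-1.05, -2.79 to 0.38), and Tlr9, the receptor of CpG DNA, had 7 and 15 (1.05, -0.28 to 2.64), so neither interval was off 0. Folr2, a folate receptor of resident macrophages, had 90 and 209 reads (log2 ratio 1.21, 0.86 to 1.59), and Gata6, the factor of resident peritoneal macrophages, had 41 and 20 (-1.01, -1.88 to -0.23). The list of elicited and resident peritoneal genes as a whole was centred at 0.00, with 6 of 11 above 0. Amino acid carriers had 4 of 12 above 0 (median -0.09), scavenger and pattern receptors 8 of 17 (-0.07), matrix protease genes 10 of 20 (0.05) and ubiquitin genes 4 of 7 (0.30).

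The cells carried macrophage markers in both libraries. Of 14 core macrophage genes 12 were kept, their CPM summed to 21022 with DMSO and 25478 with CH223191, and none was past 2-fold. Cd68, a lysosomal glycoprotein, had 18266 and 32676 reads (0.84). Cd163 had 1 and 0 reads and Cx3cr1 7 and 2. Some markers of T and NK cells (Cd3e, Cd3g, Cd3d, Cd8a), of neutrophils (S100a9, Ly6g) and of red cells (Hbb-bs) had 0 reads in all 4 libraries. Other members of the same lists had reads. The B cell list held 1 kept gene, Ighm with 317 and 540 reads (0.77), while Ms4a1 had 0 and 4. Of the 11 T and NK cell genes 9 had no read in normal medium, and the list's sum of 628 and 517 CPM came almost whole from Il7r, with 10004 and 8222 reads. The 2 kept genes of this list had log2 ratios of -0.28 and -0.82. Of 9 neutrophil genes 4 were kept and 3 had no read in normal medium. The neutrophil list summed to 67.6 and 74.6 CPM in normal medium and to 242 and 181 CPM in 4T1-CM. Lists with 1 kept gene or none summed to 20.2 and 34.3 CPM for B cells, 15.8 and 13.9 for eosinophils and mast cells, 2.57 and 1.45 for dendritic cells, 1.19 and 1.57 for mesothelial cells, and 0.251 and 0.252 for erythroid cells and platelets. The part of other cells in the results was not tested.

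Fibroblast markers were lower with CH223191. Of 9 listed genes 8 were kept, 7 were below 0 and the median was -0.85, and the list summed to 70.4 CPM with DMSO and 34.8 CPM with CH223191. In 4T1-CM the sums were 154 and 131 CPM. Col3a1, a chain of type III collagen, had 88 and 24 reads (log2 ratio -1.85, -2.59 to -1.21), Col1a2 429 and 243 (-0.82), Pdgfra, the growth factor receptor of mesenchymal cells, 91 and 49 (-0.88) and Col6a2 39 and 16 (-1.26). Dcn, which encodes decorin, was the exception with 35 and 45 reads (0.36), and Lum had 3 and 0. In bulk RNA fewer cells of a type and less RNA per cell cannot be told apart. Cyp1b1, which many fibroblasts express, was lower in the same library, and the part of these cells in its value was not tested. Of 5 endothelial markers 3 were kept and all 3 were below 0, and the list summed to 107 and 77.0 CPM, with Kdr at 142 and 80 reads (-0.82) and Vwf at 1540 and 1133 (-0.44).

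Set beside 4T1-CM, the differences of normal medium were mostly larger for genes kept and ranked by the normal medium libraries. That choice by itself favors larger ratios in normal medium, so these counts cannot show how the media compare. The 2 comparisons share no library. Of the same 12831 genes, 233 were 2-fold higher (1.82%) and 223 were 2-fold lower (1.74%) with CH223191 in 4T1-CM. Of the 15 genes ranked first on the higher side 14 were above 0 there but 0 were past 2-fold, with a median of 0.17 and a range from -0.02 to 0.66. Of the 15 ranked first on the lower side 6 were below 0, again 0 past 2-fold, with a median of 0.07. Of the 109 genes whose whole interval was past 2-fold on the higher side, 14 were 2-fold higher and 4 were 2-fold lower in 4T1-CM, and of the 36 on the lower side 8 were 2-fold lower and 6 were 2-fold higher. Some genes had ratios of similar size in both media, among them Apoe (0.55 and 0.57), Ccl6 (0.70 and 0.53) and Pltp (0.48 and 0.42), which encodes the phospholipid transfer protein. Cyp1b1 was below 0 in both, at -1.74 and -0.97, with the smaller difference in 4T1-CM. These genes were picked after their values had been seen.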

How the data were processed

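The deposited values are raw read counts in whole numbers, which the authors gave in 1 table of 54532 genes together with each gene's exonic length. The submitters' processing notes name HISAT2 2.0.5 and DESeq2, and the study's methods name FeatureCounts for its alveolar macrophage libraries. The counter of the present libraries, its strand setting and the annotation are not given in the sources used here. Of 54409 gene identifiers shared with GENCODE M21 (GRCm38), 53499 had identical coordinates. Total RNA was extracted with TRIzol and libraries were made with the NEBNext Ultra kit. The 4 columns of counts were matched to samples by name, and 103 repeated symbols were named by identifier.

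Effective library sizes came from TMM over the 4 libraries (edgeR 4.0.16, R 4.3.3), and ratios, exact intervals and medians were computed in Python 3.11.15 with numpy 2.4.6, pandas 2.3.3 and scipy 1.17.1 (figures with matplotlib 3.10.9). The quasi-likelihood test of edgeR could not be fitted, since 1 library per condition leaves no residual degree of freedom. The total of 15535405 to 17557127 counts per library sets the counting error, and intervals and the limit of 3 reads behind a count of 0 cover that error only. Members, gene lists and rules were chosen with earlier results of these data known. Named were the 15 largest rises and falls by the bound nearest 0 (protein-coding, mean of at least 10 CPM, outside ribosomal protein, mt-, Gm and Rik genes), the 5 largest rises and falls in CPM, and list members past 2-fold or else 2 to 4 with the largest ratios and at least 50 reads. Other members of the lists, the start-site windows and the list of other TOP mRNAs were chosen after their values had been seen. Shared words are the percentage of a gene's 50-base words found in transcripts of another gene. Scaling by DESeq2 1.42.0 or by totals (with or without mitochondrial and ribosomal protein genes), other filters, a larger prior count and removal of the length trend served as alternatives. The scripts were tested on simulated counts. Some genes are not reported here.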

Additional observations from a re-analysis of the deposited data

Results flagged for a closer look

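Hist1h1e, a linker histone, was past 2-fold in opposite directions in the 2 media, and it was the only one of the named genes and list members for which that held. It had 2 reads with DMSO and 14 with CH223191 in normal medium, a log2 ratio of 2.54 (95% interval 0.69 to 5.99), and 11 and 3 reads in 4T1-CM, a log2 ratio of -1.62. The difference was not tested, since each condition has 1 library, and 32.0% of the gene's 50-base words also occur in other genes.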

How the results depend on the processing

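The 2-fold counts (489 higher, 299 lower) followed the filter on low counts. They were 2812 and 2261 with no filter, 243 and 92 with at least 10 reads in both libraries, 199 and 58 with at least 50 reads in the 2 together, and 268 and 164 for protein-coding genes alone. With a prior count of 5 the lower side had 153. The stricter counts (109 higher, 36 lower) were 61 and 12 for protein-coding genes alone, and 11 on the lower side under either of the filters at 10 in both or 50 together. Chosen after seeing the data, leaving out genes with over 20% shared words gave 322 and 197, and 40 and 13 for the stricter call. Other scalings and removal of the length trend kept all 4 counts within 1.5 times. None of the 40 genes ranked by ratio or by CPM changed direction (list members outside these were not rerun one by one). Of 413 list medians none moved by more than the spread among its members. That limit is loose and lets a median change sign, so the count does not show that the medians held. The histone median went from 0.00 to -0.24 with the length trend removed. That of the mitochondrial chromosome went from 1.88 to 1.49 with at least 10 reads in both libraries. The neutrophil markers (4 genes, -0.17) were at 0.45 with no filter and at 0.05 under either stricter filter. The cause of these shifts beyond the genes left out was not tested. No paired analysis was possible because each condition has 1 library and the labels carry no replicate numbers. Depth limits genes under 50 reads, whose intervals had a median width of 2.57 on the log2 scale, against 0.24 from 1000 reads.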
